A study of Mus musculus with 8 samples.

Results

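The 10 genes described here encode the transcription factor NRF2, its inhibitor, and antioxidant and stress-defence proteins whose genes NRF2 controls. These are Nfe2l2 (NRF2), Keap1 (the inhibitor), Gclc, Gclm, Srxn1, Txnrd1, Prdx1, Hmox1, Nqo1 and Osgin1. They were chosen by gene name from 56605 array probes, and 16 probes carried one of these names. Testing required a probe that cleared the scanner's background criterion on 2 or more of the 8 arrays, which 9 of the 10 genes met, among 20076 genes in all. Nqo1, the quinone reductase that is often used as a readout of NRF2, had 1 probe, and that probe was well above background on 0 of 8 arrays.

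RNA came from RAW264.7, a mouse macrophage-like line established from a virus-induced leukaemia. The cells had either no pretreatment or 1 h with 1 mM melatonin, the pineal hormone, and then either no further agent or 100 ng/ml of LPS from Escherichia coli for 1, 3 or 5 h. All groups share the cell line and the medium, and each of the 8 conditions has 1 array. Each LPS time is therefore compared as 2 arrays, 1 from each arm, against the 2 arrays without LPS, and melatonin as 4 arrays against 4. The 3 LPS comparisons share the 2 arrays without LPS.

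The 8 arrays lay on 1 slide, with each LPS time in its own column and each arm in its own row. LPS time and slide column, as well as hours in culture, cannot be told apart, and nor can melatonin and slide row. In the melatonin arm, LPS time also cannot be told apart from time since melatonin was added. For 3 of the 4 melatonin samples the treatment entry of the labels names the next LPS time of the series, and for the last it is empty; titles, descriptions and source names give 1 and the same design, which was used. Tnf, which LPS induces, read 2.54 on the array titled melatonin without LPS, against 2.72 without LPS and 7.52 at 1 h of LPS in the arm without melatonin. All 8 macrophage markers checked were detected on 8 of 8 arrays. Their summed log2 level lay between 9.77 and 10.03 without melatonin and between 9.61 and 9.78 with it. With melatonin 5 of 8 were lowered (3 of 8 with quantile scaling), and 25.3% of all genes. With LPS 3 of the 8 were raised and 3 lowered at both 3 and 5 h. The shares of all genes raised and lowered were 18.6% and 15.1% at 3 h and 24.9% and 19.4% at 5 h. The 3 T cell markers with a probe, Cd3e, Cd3d and Lck, were well above background on 8 of 8 arrays and moved with both agents. Their summed level was 1.58 to 1.81 without LPS, 1.88 to 2.65 at 3 h and 2.33 to 2.93 at 5 h, and 2 of the 3 were raised at 3 and 5 h (medians 0.87 and 1.39). By arm it was 1.81 to 2.93 without melatonin and 1.57 to 2.33 with it, and 3 of 3 were lowered with melatonin (1 of 3 with quantile scaling), while the epithelial markers Epcam, Krt8 and Cdh1 were well above background on 0 of 8 arrays. The B cell markers summed to between -3.83 and -2.30 and the fibroblast markers to between -3.67 and -2.33, with 1 of 3 in each list well above background on 2 or more arrays. The tested fibroblast marker, Col1a2, was raised by 1.28 at 3 h and 1.08 at 5 h, and the tested B cell marker was not called. In bulk RNA, fewer cells of a kind and less RNA per cell cannot be told apart. The part of these marker differences in the results was not tested.

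NRF2, encoded by Nfe2l2, is held at a low level in resting cells by KEAP1, an adaptor that brings it to a CUL3 ubiquitin ligase for destruction. Electrophiles and oxidants modify cysteines of KEAP1, NRF2 then accumulates, pairs with small MAF proteins and binds antioxidant response elements in the promoters and enhancers of its targets. The targets make glutathione, regenerate thioredoxin and peroxiredoxin, degrade haem and reduce quinones. In macrophages the pathway is known to restrain oxidative damage and inflammatory gene expression. Because NRF2 is regulated mainly through the stability of the protein, its mRNA level alone does not report its activity.

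The core of an antioxidant response element was sought in the promoters of these genes, since the element is the feature through which they are grouped. Promoter windows of 300 bases around the start of transcription (RefSeq, GRCm38.p6) were at hand for 8 of the 10 genes, in 10 windows, and not for Gclc and Hmox1. The loose core TGANNNNGC, read on both strands, stood in windows of 7 of the 8 genes, and in 41.3% of all 32851 promoter windows. The stricter core TGANTCAGC, also on both strands and contained within the loose one, stood in windows of 3 of the 8 genes and in 1.19% of all windows. The 3 strict matches and the loose match of Gclm are printed because these genes behave differently from each other in the results. Each is printed on the strand of its gene with the match in capitals, and the Prdx1, Osgin1 and Gclm matches run on the opposite strand.
Srxn1 (chr2:152105471-152105495, match 45 bases upstream of the start): attcacccTGAGTCAGCggccgggc
Osgin1 (chr8:119437040-119437064, 99 bases upstream): gggcccctGCTGACTCAcgcttatg
Prdx1 (chr4:116685458-116685482, 133 bases upstream): gggaaagcGCTGAGTCAtcccccgt
Gclm (chr3:122245415-122245439, 134 bases upstream): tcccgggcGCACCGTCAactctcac
A match is a description of these letters and not a measured binding site. Of the 3 genes with a strict match, Srxn1 and Osgin1 were higher with melatonin and Prdx1 was not, as the values of each gene show.

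Levels are given on a log2 scale relative to the 75th percentile of the processed signals on the same array, so a level of 0 equals that percentile and a step of 1 is a doubling. A gene is called raised or lowered where the adjusted p (limma, Benjamini-Hochberg over all 20076 genes) is under 0.05. Differences carry the standard error (SE) of the fit. No condition had a replicate, so the errors measure the spread that is left after LPS time and melatonin are fitted as additive terms.

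**Figure D1:**
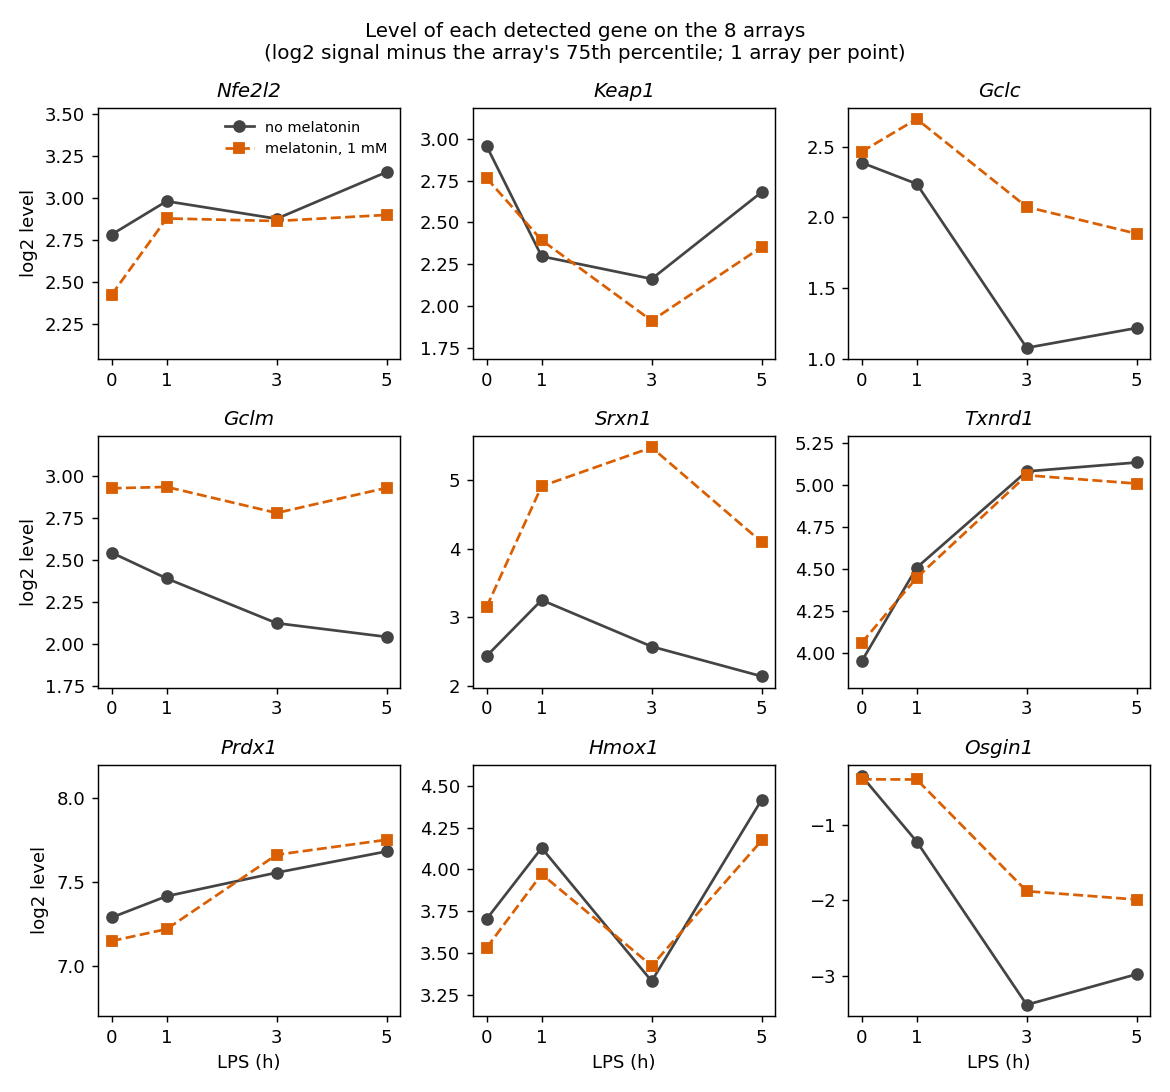
Log2 level of the 9 detected genes (vertical axis, log2 signal minus the 75th percentile of the array, scaled per panel) against hours of LPS (horizontal axis), without melatonin (circles) and with it (squares), 1 array per point. Srxn1 with melatonin read 3.15 without LPS and 5.48 at 3 h, Osgin1 without melatonin read -3.38 at 3 h, and the lines of both arms for Txnrd1 lay close together.

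Nfe2l2 lay at 2.78, 2.98, 2.88 and 3.15 at 0, 1, 3 and 5 h of LPS without melatonin, and at 2.42, 2.88, 2.86 and 2.90 with it. The lowest value was the melatonin array without LPS and the highest the array without melatonin at 5 h; the arms overlapped. The gene rose by 0.42 (SE 0.10, adjusted p = 0.0210) at 5 h, and was not called at 1 h (0.33, adjusted p = 0.227) or 3 h (0.27, adjusted p = 0.10). With melatonin it differed by -0.18 (adjusted p = 0.0955), which was not called, though the mean over its probes was called lowered (-0.25, adjusted p = 0.039). The 5 h call was lost with quantile scaling and without the array of either arm at 5 h or the melatonin array without LPS (adjusted p up to 0.134). A second Nfe2l2 probe, which targets another transcript, differed by -0.37 at 3 h, opposite in sign to the first and also not called.

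Keap1 was lowest at 3 h of LPS. It read 2.96, 2.30, 2.16 and 2.68 over 0 to 5 h without melatonin, and 2.76, 2.39, 1.91 and 2.35 with it. Both 3 h arrays were the lowest of their arms. They lay below both arrays without LPS, a separation that 52.6% of all genes showed in either direction at 3 h. Keap1 fell by 0.82 (SE 0.12, adjusted p = 0.00536) at 3 h, a call kept under all alternatives tried. At 1 h the difference was -0.51 (adjusted p = 0.115) and at 5 h -0.34 (adjusted p = 0.0611), neither called, though the latter was called with quantile scaling (-0.52, adjusted p = 0.0159). The melatonin difference of -0.17 (adjusted p = 0.154) was not called.

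Gclc and Gclm encode the catalytic and the modifier subunit of glutamate-cysteine ligase, the rate-limiting enzyme of glutathione synthesis. Gclc read 2.39, 2.24, 1.08 and 1.22 without melatonin, and 2.46, 2.69, 2.07 and 1.88 with it. The 2 lowest values were those of the arm without melatonin at 3 and 5 h, and without LPS the arms were nearly equal. Gclc fell by 0.85 (SE 0.21, adjusted p = 0.0271) at 3 h and by 0.87 (SE 0.21, adjusted p = 0.0190) at 5 h of LPS. It was 0.55 higher with melatonin (SE 0.15, adjusted p = 0.0318). All 3 calls were lost under some alternatives: at 3 h in 6 of 14, among them the omission of the array with neither agent, of either 1 h array or of the 3 h array without melatonin (adjusted p up to 0.152), at 5 h without the array with neither agent or either 5 h array (adjusted p up to 0.109), and for melatonin in 8, among them the omission of any single array with LPS (adjusted p up to 0.0995).

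Gclm behaved otherwise, with a melatonin difference and no called LPS change. Its levels were 2.54, 2.39, 2.12 and 2.04 without melatonin and 2.93, 2.94, 2.78 and 2.93 with it. All 4 melatonin arrays lay above all 4 arrays without melatonin, a separation that 19.2% of all genes showed in either direction. The difference was 0.62 (SE 0.09, adjusted p = 0.00630) and was called under all alternatives tried. Under LPS the differences were -0.07, -0.28 and -0.25 at 1, 3 and 5 h, none called; with quantile scaling those at 3 and 5 h were called (-0.42, adjusted p = 0.0449, and -0.40, adjusted p = 0.0416).

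Srxn1, Txnrd1 and Prdx1 belong to the peroxide-reducing branch. Prdx1 is an abundant peroxiredoxin that reduces hydrogen peroxide, sulfiredoxin (Srxn1) restores peroxiredoxins whose cysteine has been over-oxidised, and thioredoxin reductase 1 (Txnrd1) recharges thioredoxin with electrons from NADPH. Srxn1 read 2.44, 3.25, 2.57 and 2.14 without melatonin, and 3.15, 4.91, 5.48 and 4.10 with it. The arrays with melatonin and LPS were the 3 highest of the 8, and the melatonin array without LPS lay just below the highest array without melatonin. The range over the 8 arrays, 3.34, was wider than that of 95.1% of all genes.

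Srxn1 was 1.81 higher with melatonin on the log2 scale (SE 0.33, adjusted p = 0.0101), or 3.51-fold. The difference between the arms was 0.72 without LPS, 1.66 at 1 h, 2.90 at 3 h and 1.96 at 5 h. Melatonin was thus higher at each of the 4 times, and the call was kept under all alternatives, with values from 1.45 to 2.17. The LPS differences of 1.29 at 1 h (adjusted p = 0.273), 1.23 at 3 h (adjusted p = 0.0887) and 0.32 at 5 h (adjusted p = 0.601) were not called, with an SE of 0.46 each. Leaving out 1 array gave values of 0.56 to 2.02 at 1 h and 0.50 to 1.96 at 3 h, and the 3 h difference was called without the array with neither agent or the 3 h array without melatonin (adjusted p down to 0.0347). Within the arms, the 3 h array minus the array without LPS gave 0.14 without melatonin and 2.33 with it.

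Txnrd1 followed LPS in both arms alike. Levels were 3.95, 4.51, 5.08 and 5.13 without melatonin and 4.06, 4.45, 5.06 and 5.01 with it. Every array with LPS lay above both arrays without it, and the arms differed by at most 0.13 at any time. Of all genes, 32.7% at 1 h, 52.6% at 3 h and 60.2% at 5 h were separated from no LPS in either direction. Txnrd1 rose by 0.47 (SE 0.07, adjusted p = 0.0437) at 1 h, by 1.07 (SE 0.07, adjusted p = 0.000744) at 3 h and by 1.07 (SE 0.07, adjusted p = 0.000468) at 5 h, about a doubling (2.09-fold at 3 h). The 3 h and 5 h calls were kept under all alternatives, and the 1 h call was lost in 10 of 14, among them the omission of any single array (adjusted p up to 0.343). The melatonin difference was -0.02 (adjusted p = 0.719), and turned to 0.21 (adjusted p = 0.0225) with quantile scaling and to 0.22 (adjusted p = 0.0199) in the deposited table, both called. A second probe of Txnrd1 gave 0.69, 1.25 and 1.06 at 1, 3 and 5 h and -0.03 for melatonin.

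Prdx1 read 7.29, 7.42, 7.56 and 7.68 without melatonin, and 7.15, 7.22, 7.66 and 7.75 with it. The 4 arrays at 3 and 5 h were the highest, and the arms crossed between 1 and 3 h. Prdx1 rose by 0.39 (SE 0.08, adjusted p = 0.0169) at 3 h and by 0.50 (SE 0.08, adjusted p = 0.00556) at 5 h. Both calls were lost with quantile scaling and in the deposited table (at 5 h adjusted p up to 0.162), and the 3 h call also without the filter on dim probes, without the intensity trend of the fit, without either array without LPS and without the melatonin array at 3 h. The range over all arrays, 0.60, was the smallest of the 9 genes and wider than that of 28% of all genes.

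Of the 4 Prdx1 probes, 1 did not follow the others at 1 h of LPS or with melatonin. Probe A_66_P137616 lies at chr4:116358559-116358618 (mm9, plus strand), inside the stretch chr4:116358214-116360019 that the junction probe A_66_P113839 spans, and its target is named in the files by an Ensembl transcript rather than the RefSeq mRNA. It read -3.01, -2.06, -2.32 and -2.00 without melatonin, and -2.05, -0.98, -1.05 and -1.04 with it. At each time the melatonin array was about 1 unit higher. In a limma fit of 30417 probes it rose by 1.01 (SE 0.13, adjusted p = 0.0211) at 1 h. The rise was 0.84 at 3 h (adjusted p = 0.00603) and 1.01 at 5 h (adjusted p = 0.00233). At 1 h the other 3 probes were not called, and at 3 and 5 h all 4 were called raised. With melatonin A_66_P137616 was 1.07 higher (SE 0.09, adjusted p = 0.00247). The melatonin differences of the other 3 probes were -0.04, 0.02 and 0.02, none called.

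**Figure D2:**
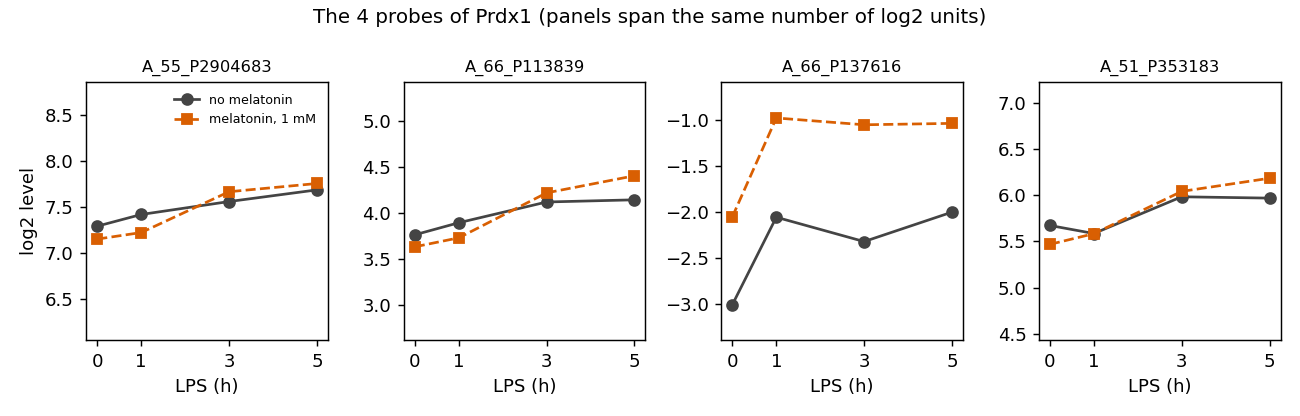
Log2 level (vertical axis, log2 signal minus the 75th percentile of the array) of the 4 Prdx1 probes against hours of LPS, without melatonin (circles) and with it (squares), 1 array per point. The panels span the same number of log2 units. The melatonin array is the higher at each time in the panel of A_66_P137616, and the lines of the arms cross in the other 3.

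Hmox1, haem oxygenase 1, breaks haem down to biliverdin, iron and carbon monoxide. It read 3.70, 4.13, 3.33 and 4.42 without melatonin, and 3.53, 3.97, 3.43 and 4.17 with it. In both arms the 3 h array read lowest and the 5 h array highest. Only the 5 h change was called, a rise of 0.68 (SE 0.10, adjusted p = 0.00350) that was kept under all alternatives. The differences at 1 h (0.43, adjusted p = 0.106) and 3 h (-0.24, adjusted p = 0.107) were not called, the latter becoming called with quantile scaling (-0.41, adjusted p = 0.0251). The melatonin difference of -0.12 (adjusted p = 0.199) was not called and turned to 0.06 with quantile scaling. A second Hmox1 probe was well above background on 1 of 8 arrays and was not used, and the Nqo1 probe, with log2 readings between -6.99 and -6.25, was not well above background on any array.

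Osgin1, an oxidative stress-induced growth inhibitor, showed the largest LPS change of the 9 genes. Its levels were -0.36, -1.22, -3.38 and -2.97 without melatonin, and -0.40, -0.41, -1.88 and -1.99 with it. The arms were nearly equal without LPS, and the melatonin arrays were the higher ones at each LPS time. Osgin1 fell by 2.25 (SE 0.34, adjusted p = 0.00621), or 4.75-fold, at 3 h and by 2.10 (SE 0.34, adjusted p = 0.00524) at 5 h, and both calls were kept under all alternatives. With melatonin it was 0.81 higher (SE 0.24, adjusted p = 0.0409). That call was lost in 8 of 14 alternatives, among them the omission of any single array with LPS (adjusted p up to 0.124). Within the arms, the 3 h array minus the array without LPS gave -3.02 without melatonin and -1.48 with it.

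**Figure D3:**
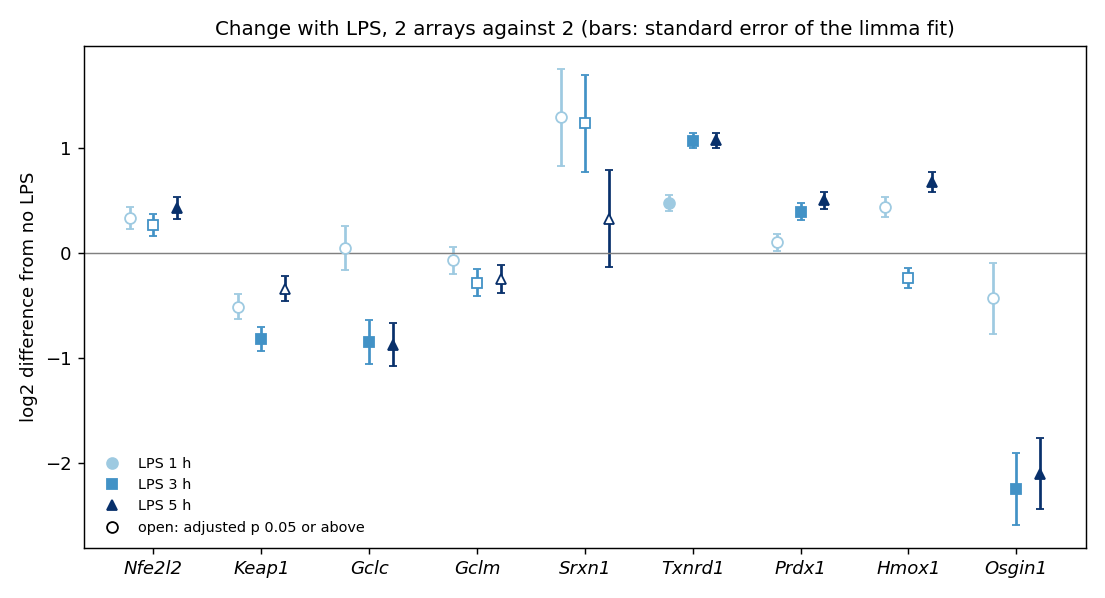
Log2 difference from no LPS (vertical axis) for the 9 detected genes at 1 h (circles), 3 h (squares) and 5 h (triangles), as the limma estimate over both arms with its SE as bars; filled symbols have an adjusted p under 0.05. Txnrd1 lies near 1.07 at 3 and 5 h and Osgin1 near -2.25 and -2.10.

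Counted together, 1 of the 9 genes, Txnrd1, was called at 1 h of LPS and raised, against 1.96% of all genes tested called and 1.67% raised. At 3 h 5 of 9 were called, 2 raised (Txnrd1, Prdx1) and 3 lowered (Keap1, Gclc, Osgin1), against 33.7% of all genes (18.6% raised and 15.1% lowered). At 5 h 6 of 9 were called, 4 raised (Nfe2l2, Txnrd1, Prdx1, Hmox1) and 2 lowered (Gclc, Osgin1), against 44.2% (24.9% raised and 19.4% lowered). The genes thus did not change in 1 direction with LPS. Their median was -0.24 at 3 h and 0.32 at 5 h, with 0.06 and 0.08 for all genes. Quantile scaling gave 1 raised and 5 lowered at 3 h, and 2 raised and 4 lowered at 5 h; over all genes it moved the raised share of calls from 55.2% to 42.4% at 3 h and from 56.2% to 43.2% at 5 h.

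With melatonin 4 of 9 genes were called, all raised (Srxn1, Osgin1, Gclm and Gclc), against 40.6% of all genes, of which 15.3% were raised and 25.3% lowered. The median of the 9 was -0.02, since the other 5 lay between -0.18 and -0.02, and that of all genes -0.10. Srxn1, Gclm and Gclc were higher with melatonin at all 4 times, as were 22.5% of all genes. Quantile scaling gave 5 raised, Txnrd1 being the added gene, and 0 lowered, and moved the raised share of calls over all genes from 37.7% to 52.5%. The mean over probes gave 5 raised, Prdx1 being the added gene, and 1 lowered, Nfe2l2. Leaving out any single array with LPS left 2 called, Srxn1 and Gclm.

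**Figure D4:**
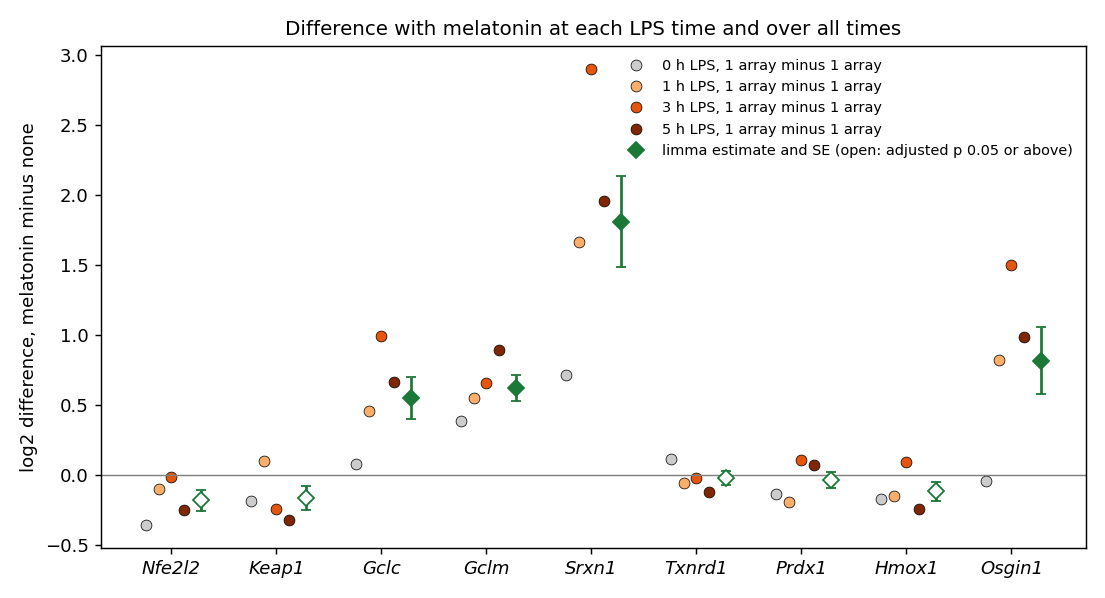
Log2 difference, melatonin minus none (vertical axis), for the 9 detected genes. Circles are single pairs of arrays at 0, 1, 3 and 5 h of LPS, and diamonds the limma estimate with its SE, filled where the adjusted p is under 0.05. For Srxn1 the circles run from 0.72 without LPS to 2.90 at 3 h.

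Whether the melatonin difference itself was larger under LPS was tested by a further term: the melatonin difference averaged over the 3 LPS times, less the difference in cells without LPS. This term cannot tell LPS apart from time since melatonin was added. The differences at 0, 1, 3 and 5 h were 0.08, 0.46, 1.00 and 0.67 for Gclc. They were 0.38, 0.55, 0.66 and 0.89 for Gclm, and -0.04, 0.82, 1.5 and 0.98 for Osgin1. In each of these genes, and in Srxn1, the pair without LPS differed least. The term was 1.46 for Srxn1 (SE 0.48), 1.15 for Osgin1 (SE 0.32), 0.63 for Gclc (SE 0.24) and 0.31 for Gclm (SE 0.19). None was called by limma (adjusted p = 0.908 for each). Over all genes limma called 0 (0%) for this term, and 754 (3.76%) had an unadjusted p under 0.05, among them Osgin1, Srxn1 and Gclc. A larger melatonin difference under LPS was therefore not shown for any of these genes.

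Likeness to other genes was taken as the correlation of levels over the 8 arrays, for the 3 genes with the widest range. These values are descriptions, since all genes share the arrays. Among the genes with a symbol, closest to Srxn1 were Klhl11 (r = 0.975) and Iqcb1 (r = 0.971). Closest to Osgin1 were Tspyl4 (r = 0.996) and Tbc1d2 (r = 0.993), and closest to Gclc were Rbm38 (r = 0.998) and Galnt12 (r = 0.990). None of the other genes examined here was among them.

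Beyond these genes, 50 of 54 listed genes of the wider pathway were tested. Of the 50, 2 were raised and 1 lowered at 1 h, 10 raised and 18 lowered at 3 h, and 15 raised and 18 lowered at 5 h, while melatonin raised 17 and lowered 10. Of all genes 1.67% were raised and 0.284% lowered at 1 h, and 18.6% and 15.1% at 3 h. These shares were 24.9% and 19.4% at 5 h, and 15.3% and 25.3% with melatonin. The medians of the 50 were -0.09 at 3 h, -0.19 at 5 h and 0.07 for melatonin. Quantile scaling changed these counts to 9 and 23 at 3 h, 10 and 24 at 5 h, and 26 and 3 for melatonin, so the balance of directions depends on the scaling. With 1 array left out, between 2 and 20 were lowered at 3 h, between 9 and 20 at 5 h, and between 5 and 14 were raised and between 4 and 7 lowered with melatonin. The melatonin by LPS term called 0 of 50.

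Among the 10 regulators and partners of NRF2, LPS raised 5 and lowered 2 at 3 h (18.6% and 15.1% of all genes), and raised 7 and lowered 0 at 5 h (24.9% and 19.4%). Maff, a small MAF protein that pairs with NRF2 and related factors, read -3.47, 1.27, 1.02 and 1.13 without melatonin and -5.23, -0.35, -1.19 and -0.87 with it, and the melatonin array without LPS was not well above background. With that reading set to the lowest level well above background on its array, Maff rose by 4.37 at 1 h (SE 0.32, adjusted p = 0.00406). The rise was then 3.83 at 3 h and 4.04 at 5 h, and Maff was 1.68 lower with melatonin (adjusted p = 0.00537). With normexp background correction the rise at 1 h was 3.17 (adjusted p = 0.0163). Sqstm1, the autophagy receptor p62 that sequesters KEAP1, rose by 0.96 at 1 h, 1.72 at 3 h and 1.92 at 5 h. Nfe2l1, a sister factor of NRF2, rose by 1.08 at 5 h. Bach1, a repressor that competes for the same elements, fell by 1.02 at 3 h (adjusted p = 0.0233) and was 0.79 higher with melatonin (adjusted p = 0.0165). Melatonin raised 4 of the 10 and lowered 1, and Btrc, a ubiquitin ligase subunit, was 0.58 higher (adjusted p = 0.0373). With 1 array left out, between 0 and 2 were raised with melatonin (15.3% of all genes), between 3 and 4 at 3 h and between 4 and 7 at 5 h, and between 0 and 2 were lowered at 3 h. The calls for Maff, for Nfe2l1 and for Sqstm1 at 3 and 5 h were kept under all alternatives, and those for Bach1, Btrc and Sqstm1 at 1 h were not.

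Of the glutathione and conjugation genes, 10 of 12 were tested, and LPS raised 3 and lowered 3 at both 3 and 5 h, with 18.6% and 15.1% of all genes at 3 h and 24.9% and 19.4% at 5 h. Each fit without 1 array also gave 3 raised, while between 0 and 3 were lowered at 3 h and between 2 and 3 at 5 h. The 3 raised were Slc7a11 and Slc3a2, the subunits of the cystine importer that feeds glutathione synthesis, and Abcc1, an exporter of glutathione conjugates. Slc7a11 read -0.16, 0.29, 2.03 and 2.37 without melatonin, and 0.41, 0.93, 2.42 and 3.07 with it. It rose by 2.10 (SE 0.10, adjusted p = 0.000290) at 3 h and 2.59 (SE 0.10, adjusted p = 0.000127) at 5 h. Slc3a2 rose by 0.91 and 1.36, and Abcc1 by 0.93 and 1.12. With melatonin 3 were raised and 2 lowered (15.3% and 25.3% of all genes), though quantile scaling gave 4 and 0, and leaving out 1 array gave between 0 and 2 lowered. Slc7a11 was 0.58 higher (adjusted p = 0.00448) and Gss, glutathione synthetase, 0.52 higher (adjusted p = 0.00348). All 4 melatonin arrays of Gss lay above the 4 without, a separation that 19.2% of all genes showed in either direction. Gpx1, a glutathione peroxidase, was 0.38 lower (adjusted p = 0.0139), a call lost in 6 of 14 alternatives, quantile scaling among them. The other calls named in this paragraph were kept under all alternatives.

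Of the 9 thioredoxin and peroxiredoxin genes, LPS raised 4 and lowered 1 at 5 h (24.9% and 19.4% of all genes), and melatonin raised 1 and lowered 4 (15.3% and 25.3%). With quantile scaling these counts became 1 and 3 for LPS at 5 h, and 4 and 0 for melatonin, so no direction is given for the list. Prdx5, a peroxiredoxin of mitochondria, peroxisomes and cytosol, read 5.18, 5.50, 6.67 and 7.29 without melatonin and 4.98, 5.14, 5.68 and 6.19 with it. It rose by 1.66 (SE 0.23, adjusted p = 0.00334) at 5 h under all alternatives, and was 0.66 lower with melatonin (adjusted p = 0.0250), a call lost in 8 of 14 alternatives, quantile scaling among them. Txnip, the thioredoxin-binding inhibitor, fell by 1.45 at 1 h (SE 0.20, adjusted p = 0.0309) and by 0.88 at 3 h, both calls lost in some alternatives. Prdx6 fell by 0.37 at 5 h (adjusted p = 0.00220). Sesn2, a stress-induced sestrin, was called at 5 h (0.80, adjusted p = 0.0464) and with melatonin (0.57, adjusted p = 0.0483), and neither call was kept throughout. Prdx2 was 0.17 lower with melatonin (adjusted p = 0.0376) and 0.07 higher with quantile scaling.

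The enzymes that supply NADPH, on which both the glutathione and the thioredoxin branch draw, were 7, of which LPS lowered 4 and raised 0 at both 3 and 5 h, with 15.1% and 19.4% of all genes lowered at these times. Idh1, the cytosolic isocitrate dehydrogenase, read 1.01, 1.00, -0.26 and -1.07 without melatonin and 1.28, 1.14, 0.08 and -0.64 with it. It fell by 1.23 at 3 h and by 2.0 (SE 0.10, adjusted p = 0.000242) at 5 h. The pentose phosphate enzymes Pgd and Pgls fell by 0.51 and 0.42 at 5 h, though the Pgd call was lost with the mean over probes (-0.24, adjusted p = 0.332) and without either array of the arm without melatonin at 0 or 5 h. Taldo1 fell by 0.39 at 3 h, a call lost without the array with neither agent (adjusted p = 0.0643). Between 1 and 4 of the 7 were lowered at 3 h with 1 array left out. The calls for Idh1 under LPS and for Pgls were kept under all alternatives. Melatonin raised 2, Idh1 by 0.30 and Pgd by 0.28, and lowered 1, Tkt by 0.15 (15.3% and 25.3% of all genes). Each of these 3 calls was lost in at least 6 of 14 alternatives. With quantile scaling Tkt turned to 0.09 and was called raised (adjusted p = 0.0434). That scaling gave 4 of the list raised and 0 lowered with melatonin, and 6 lowered at both 3 and 5 h.

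Of the 7 haem and iron genes, LPS raised 1 and lowered 3 at 5 h, with 24.9% of all genes raised and 19.4% lowered. Slc40a1, the iron exporter ferroportin, fell by 1.97 at 3 h (SE 0.33, adjusted p = 0.00844) and by 1.54 at 5 h. It was not well above background on the 3 h array without melatonin. With that reading set to the lowest level well above background the fall at 3 h was 1.82 (adjusted p = 0.00532). Slc48a1, a haem transporter, fell by 1.17 at 5 h, and Abcb6, a porphyrin transporter, by 1.07. Fth1, the ferritin heavy chain, rose by 0.29 at 3 h, by 0.14 with quantile scaling, and its 3 h call was lost without the intensity trend (adjusted p = 0.0530). It was the gene raised at 5 h, by 0.47 (SE 0.03, adjusted p = 0.000506), and was 0.33 lower with melatonin (adjusted p = 0.00222). The calls for Slc40a1 and the 5 h calls for Slc48a1 and Abcb6 were lost without the array with neither agent (adjusted p up to 0.109), as was that for Slc40a1 at 5 h without the melatonin array at 5 h and that for Slc48a1 without the other 5 h array. With 1 array left out, between 0 and 3 of the list were lowered at 5 h. With melatonin 3 were raised (between 1 and 4 with 1 array left out) and 2 lowered, with 15.3% and 25.3% of all genes. Slc48a1 was 0.96 higher (SE 0.20, adjusted p = 0.0145), a call lost without either 3 h array. Blvra, a biliverdin reductase that follows Hmox1 in haem breakdown, was 0.70 lower (SE 0.06, adjusted p = 0.00227). Blvrb, the other biliverdin reductase of the list, was 0.40 higher (SE 0.07, adjusted p = 0.00803). Blvra read 2.88, 2.92, 3.02 and 3.04 without melatonin and 2.17, 2.26, 2.23 and 2.40 with it. Its arms did not overlap, as in 19.2% of all genes, and its call was kept under all alternatives.

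Of the quinone, aldehyde and other detoxification genes, 7 of 9 were tested, and LPS lowered 5 at 3 h and 7 of 7 at 5 h, with 15.1% and 19.4% of all genes lowered at these times. Cbr3, a carbonyl reductase, read 0.98, 0.70, -0.60 and -2.04 without melatonin and 1.27, 1.06, 0.12 and -0.60 with it. It fell by 2.44 (SE 0.28, adjusted p = 0.00180) at 5 h. Ephx1, microsomal epoxide hydrolase, fell by 1.39 (SE 0.08, adjusted p = 0.000324) and Cat, catalase, by 0.91 (adjusted p = 0.0107). Melatonin raised 4 of 7 and lowered 0 (15.3% and 25.3% of all genes), with Cbr3 0.70, Cat 0.61 and Ephx1 0.37 higher. The melatonin call of Cbr3 was lost in 6 of 14 alternatives, among them the omission of any 1 h or 3 h array (adjusted p up to 0.114), and its value went down to 0.46 without either 5 h array. That of Cat was lost without either 1 h array (adjusted p up to 0.0541), and that of Ephx1 was kept under all alternatives. Quantile scaling gave 7 of 7 lowered at 5 h and 5 of 7 raised with melatonin. Leaving out 1 array at a time gave between 1 and 6 lowered at 3 h, between 3 and 7 lowered at 5 h, and between 1 and 4 raised with melatonin. Leaving out the array with neither agent ended the 5 h call of Cat (adjusted p = 0.0735).

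**Figure D5:**
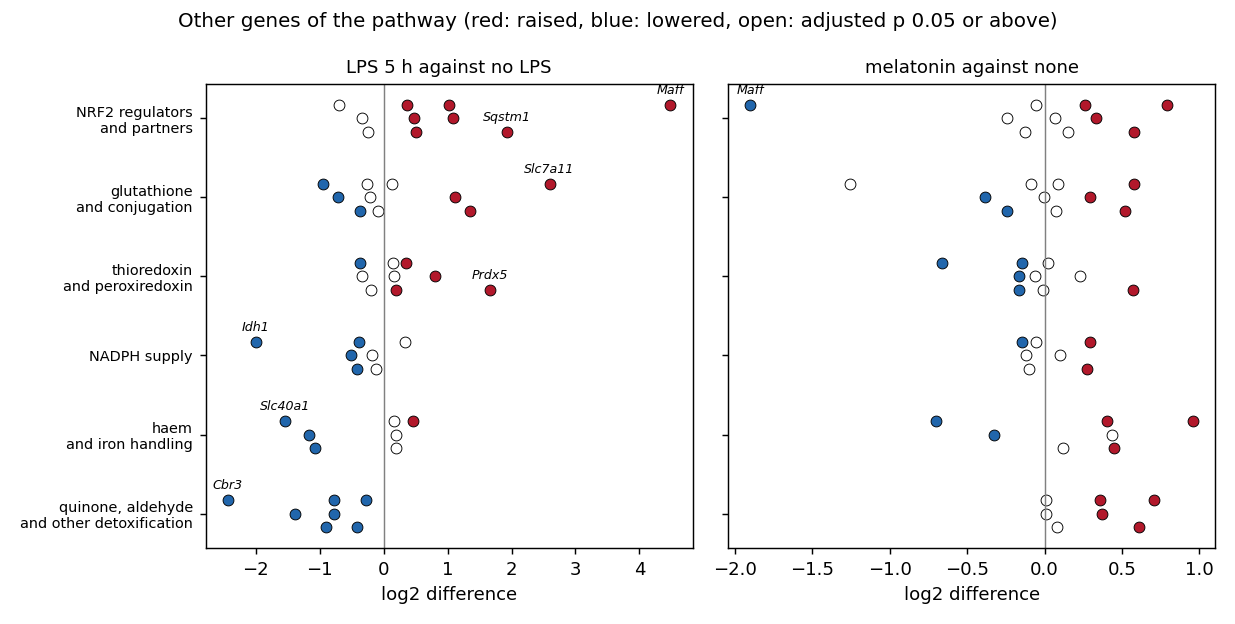
Log2 difference (horizontal axis) of the 50 other pathway genes tested, in 6 lists (rows), at 5 h of LPS against no LPS (left) and with melatonin against none (right), as limma estimates. Red marks raised, blue lowered and open symbols an adjusted p of 0.05 or above; calls beyond 1.4 are named, and vertical offsets within a row carry no meaning. All 7 detoxification genes lie left of 0 at 5 h.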

How the data were processed

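The 10 genes and the gene lists were chosen with earlier results of these data known. The intensity values were, per the file headers, processed signals of a 1-colour protocol, background-subtracted and detrended by Agilent Feature Extraction (version 12.0.3.1, also in the submitters' processing notes). Flags of spots well above background came from the same deposited files. The log2 table deposited by the authors has the same sorted values on every array, as quantile normalization leaves them; the tool behind it is not given in the sources. Probe coordinates are those of the files (mm9).

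Control and outlier-flagged spots were left out (3671 control spots of 62976), log2 processed signals were scaled to the 75th percentile of each array (659.1 to 846.1), and probes well above background on at least 2 arrays were kept. Between 46.96% and 52.98% of probes per array were well above background. Of several probes of a gene, that with the highest mean was used, and symbols were updated through RefSeq accessions for 1535 probes. Precision is limited by the number of arrays. R 4.3.3 and limma 3.58.1 (trended empirical Bayes, 2-sided) fitted LPS time and melatonin with 3 residual degrees of freedom, or 2 with the melatonin by LPS term. The additive fit was run on data simulated with independent noise and no melatonin by LPS term. That run does not test the p-values where the melatonin effect varies with time. Because no condition has a replicate, p-values reflect only the residual spread of these arrays, and a melatonin effect that varies with time is part of it. All 10 genes are named. Of each other list, up to 3 called genes with the largest change per comparison were eligible to be named, and not all of these are printed. Blvrb beside Blvra, and Fth1 at 5 h and with melatonin, are given in addition. Alternatives were quantile scaling, the deposited table, normexp with an offset of 50, no filter, the mean over probes, no trend and leaving out each array. Fits of single probes, the alternatives for the other lists and, for Maff and Slc40a1, readings below background set to the lowest level well above it on their array were added after seeing the data.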

Additional observations from a re-analysis of the deposited data

How the results depend on the processing

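The fit compares the arms within each LPS time, because time is one of its terms, and each condition has 1 array, which leaves no further block. Of 16 calls among the 10 genes, 8 held under all 14 alternatives tried: Keap1 at 3 h, Osgin1 and Txnrd1 at 3 and 5 h, Hmox1 at 5 h, and Srxn1 and Gclm with melatonin. Of 57 calls of other genes, those with the largest change per list and comparison, 25 held. Not all of the 57 are printed, and Blvrb and the 5 h and melatonin calls of Fth1 are not counted among them. With 8 arrays, a low count of calls for the melatonin by LPS term does not show that the term is 0. No fit of that term exists without either array without LPS.

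Without the filter on dim probes the genes called at 1 h went from 393 to 137, and without the intensity trend to 159; in both, the calls among the 10 genes went from 1 to 0 at 1 h, from 5 to 3 at 3 h and from 4 to 2 for melatonin. More tests share the adjustment in the first, but the cause was not tested in either. With 1 array left out, the genes called ranged from 95 to 320 at 1 h, 2489 to 6816 at 3 h, 4478 to 8375 at 5 h, 4130 to 6769 for melatonin and 0 to 40 for the term. Among the 10 genes the ranges were 0 to 0, 4 to 5, 4 to 7, 2 to 4 and 0 to 0; such fits rest on fewer arrays.

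Signs turned for these melatonin differences, with quantile scaling and in the deposited table: Hmox1 0.058 and 0.057, Prdx1 0.177 and 0.139, Txnrd1 0.213 and 0.22, Prdx2 0.071 and 0.0884, and Tkt 0.0871 and 0.0571. Of these, Txnrd1 was called raised under both scalings, and Tkt was called raised with quantile scaling. Both scalings give all arrays 1 distribution of values, and the cause was not tested. With the mean over probes Prdx1 with melatonin was 0.26 (adjusted p = 0.0230), and its probes A_51_P353183, A_66_P113839 and A_66_P137616 gave 0.0169, 0.0165 and 1.07. Nfe2l2 turned at 3 h (-0.0498 as the mean over probes, -0.37 for probe A_55_P2720430) and in the melatonin by LPS term (-0.0575 and -0.35). With 1 array left out, signs turned for values that were not called: at 1 h Gclc (-0.27 to 0.36), Gclm (-0.23 to 0.0839), Osgin1 (-1.01 to 0.14) and Prdx1 (-0.005 to 0.203), at 5 h Srxn1 (-0.40 to 1.05), with melatonin Prdx1 (-0.0889 to 0.012) and Txnrd1 (-0.0697 to 0.0089), and in the term Hmox1 (-0.0284 to 0.139) and Keap1 (-0.0969 to 0.115).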
